A study of Mus musculus with 28 samples.

Results

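The regions described here are stretches of the mouse genome that carried a called H3K9me2 domain in 2-cell-like cells (2CLCs) treated with DMSO and in no other sorted population of the study. To obtain them, the bases of 2CLC DMSO domains on chromosomes 1 to 19 that lay outside the domains of mESC DMSO, mESC dTAG and 2CLC dTAG were collected, segments under 1 kb apart were joined, and runs of at least 25 kb were kept. Of 1546 runs of any length, 496 reached this width. They came from 473 of the 3870 2CLC DMSO domains on these chromosomes, out of 22791 domains in the 4 sorted sets, and held 28.2 Mb, or 2.30% of the 2CLC DMSO domain bases. Their number, width and absence from the other sets follow from the rule and are given as a description.

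H3K9me2 was mapped by ULI-NChIP, in which native, uncrosslinked chromatin of few cells is immunoprecipitated, with 14 immunoprecipitated libraries and 14 input libraries. The sorted samples came from EHMT2-dTAG-mcherry MERV-GFP cells, a mouse embryonic stem cell (mESC) line on a BL6/129 hybrid background in which both copies of the endogenous Ehmt2 gene carry a degron (dTAG), HA tags and an mCherry reporter, together with a GFP reporter driven by MERVL, a retroviral element active in 2-cell embryos. All sorted groups share these alleles, the control cells included, and grew in serum and LIF. Cells were kept for 72 h in DMSO or in the degrader dTAG-13, then separated into GFP-negative mESCs and GFP-positive 2CLCs, with 3 immunoprecipitated and 3 input libraries for each of the 4 groups (mESC DMSO, mESC dTAG, 2CLC DMSO and 2CLC dTAG). Bulk EHMT2-dTAG-mcherry cells, without sorting, were collected after 24 h in DMSO, with 2 libraries of each kind. The labels state that the retinoid TTNBP was given to 2 of the replicates, without saying which, whereas the study's methods describe the sorted cultures as treated in its presence without that limit. A sorted group may thus mix cultures with and without it, or all of its cultures may have received it. A 2CLC is defined here by the reporter alone, and the domain lists hold no expression with which other markers of the state could be checked.

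Each sorted group is represented by 1 list of domain positions for the whole group. The lists hold no signal and no value per replicate, and the depth behind them is unknown. Differences between lists could therefore not be set against the spread between cultures, and no test was run. The intervals given below are 95% intervals over regions or gene starts. They describe variation along the genome and not between cultures. The intervals on numbers of gene starts or regions treat each one as independent, and are too narrow where these lie in clusters. A further list, the unlabelled set, names neither cell state nor treatment and took no part in choosing the regions.

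H3K9me2 is a mark of repressed chromatin laid down by EHMT2 together with its partner EHMT1, often over wide domains in gene-poor and lineage-restricted parts of the genome. Cells of a stem cell culture pass now and then into the 2-cell-like state, in which the transcription factor DUX and the Zscan4 and MERVL transcripts of the 2-cell embryo are active. In regions built from near-identical copies, a short sequencing read has several possible origins, and an assembly gap gives no reads at all.

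The 3 widest regions hold 1.65 Mb, or 5.83% of the bases, and 24 of the 140 protein-coding gene starts, and all of them contain repeated sequence. The following stretches of the GRCm38.p6 assembly (RefSeq) are shown because they make that property visible. In each, capitals mark 50 bases that recur on the same strand inside the region, and the flanking bases are in lower case.
Sp100 family region, chr1:84972859-84973008, plus strand: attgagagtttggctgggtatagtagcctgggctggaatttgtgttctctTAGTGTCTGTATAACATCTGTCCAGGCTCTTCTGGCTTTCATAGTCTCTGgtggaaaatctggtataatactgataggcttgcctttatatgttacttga
chromosome 14 region, chr14:5971697-5971846, plus strand: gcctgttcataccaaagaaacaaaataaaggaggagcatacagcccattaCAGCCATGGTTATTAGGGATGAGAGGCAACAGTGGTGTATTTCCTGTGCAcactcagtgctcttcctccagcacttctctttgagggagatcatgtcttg
Duxf3 region, chr10:58221350-58221499, plus strand: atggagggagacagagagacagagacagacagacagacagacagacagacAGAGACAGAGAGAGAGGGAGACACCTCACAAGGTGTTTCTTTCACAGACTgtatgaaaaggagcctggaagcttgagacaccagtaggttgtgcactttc
The 50 bases in capitals occur 7 times in the region on chromosome 1, 12 times in the one on chromosome 14 and 5 times in the one on chromosome 10. The closest copies start 9.73 kb, 25.8 kb and 2.77 kb apart, respectively. These were the 50-base words with the most copies in their region among words made of all 4 bases in fair shares. Over each whole region, 51.0%, 81.6% and 27.5% of the 50-base words with known sequence occurred more than once on their chromosome, against 7.62% over chromosomes 1 to 19 and 5.88% over the 496 regions together. The part of repeated sequence in the calls was not tested.

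The widest region was a domain of its own that covered the Sp100 gene family (chr1:84925096-85675094, 750 kb). SP100 is a component of nuclear bodies, and SP110 and SP140 are related chromatin-associated proteins of the interferon and immune response. Sp110 (chr1:85576899-85598817) and Sp140 (chr1:85600378-85645037) lay wholly inside, and Sp100 (chr1:85649988-85709998) with its start and 41.8% of its length. The other gene starts were those of Slc16a14, a member of a family of monocarboxylate transporters, C130026I21Rik, A530032D15Rik, Gm10553 and G530012D18Rik. C130026I21Rik was the longest gene inside, with 278 kb, and A530032D15Rik and Gm10553 start within its span. The nearest domain was 205 kb away in mESC DMSO and 180 kb away in both mESC dTAG and 2CLC dTAG. No mESC DMSO domain lay in 3305 kb around it, and the corresponding domain-free stretches were 1135 kb in mESC dTAG and 1130 kb in 2CLC dTAG. A single domain of 905 kb in the unlabelled set covered all of it. An assembly gap of 100 kb lies inside, so 650 kb have known sequence.

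The region on chromosome 14 (chr14:5961140-6476138, 515 kb) was of another kind. In 2CLC DMSO it was the interior of a domain of 3425 kb, and in the other sorted sets domains stopped at or within 10 kb of its edges, at 5961139 in mESC DMSO, at 5951139 in mESC dTAG and at 5956139 in 2CLC dTAG, and resumed at 6476139 in all 3. It was thus a hole in the domain landscape of 3 sets that 2CLC DMSO did not show. The unlabelled set covered it entirely, within a domain of 1910 kb. The 13 protein-coding genes that start here (Gm3248, Gm3453, Gm8206, Gm6337, Gm3468, Gm3476, Gm21560, Gm3411, Gm21103, Gm3618, Gm16440, Gm3591 and Gm3594) are known by model names only, and all are annotated on the minus strand. Soft-masked sequence, meaning bases marked as interspersed or simple repeats in the assembly, made up 61.7% of it.

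The third region (chr10:57869924-58249923, 380 kb) holds Duxf3, the gene of DUX, which activates genes of the 2-cell stage. Domains of mESC DMSO, mESC dTAG and 2CLC dTAG all ended at 57869923, whereas the 2CLC DMSO domain ran from 57824924 to 58249923. An assembly gap of 343 kb from 57862808 to 58205865 makes up 88.4% of the region. Only 44.1 kb of known sequence follow the gap, and the called width is mostly the gap. These 44.1 kb contain the starts of AW822073 (chr10:58222972-58224930), Duxf3 (chr10:58229979-58232675) and Gm4981 (chr10:58234848-58236701), all on the minus strand. The next domains of the other sets began at 58509924 in mESC dTAG and 2CLC dTAG and at 58564924 in mESC DMSO, so the 3 genes lay outside domains there. The unlabelled set did not share any base with the region. The part that the gap and the copies next to it had in the call was not tested.

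**Figure D1:**
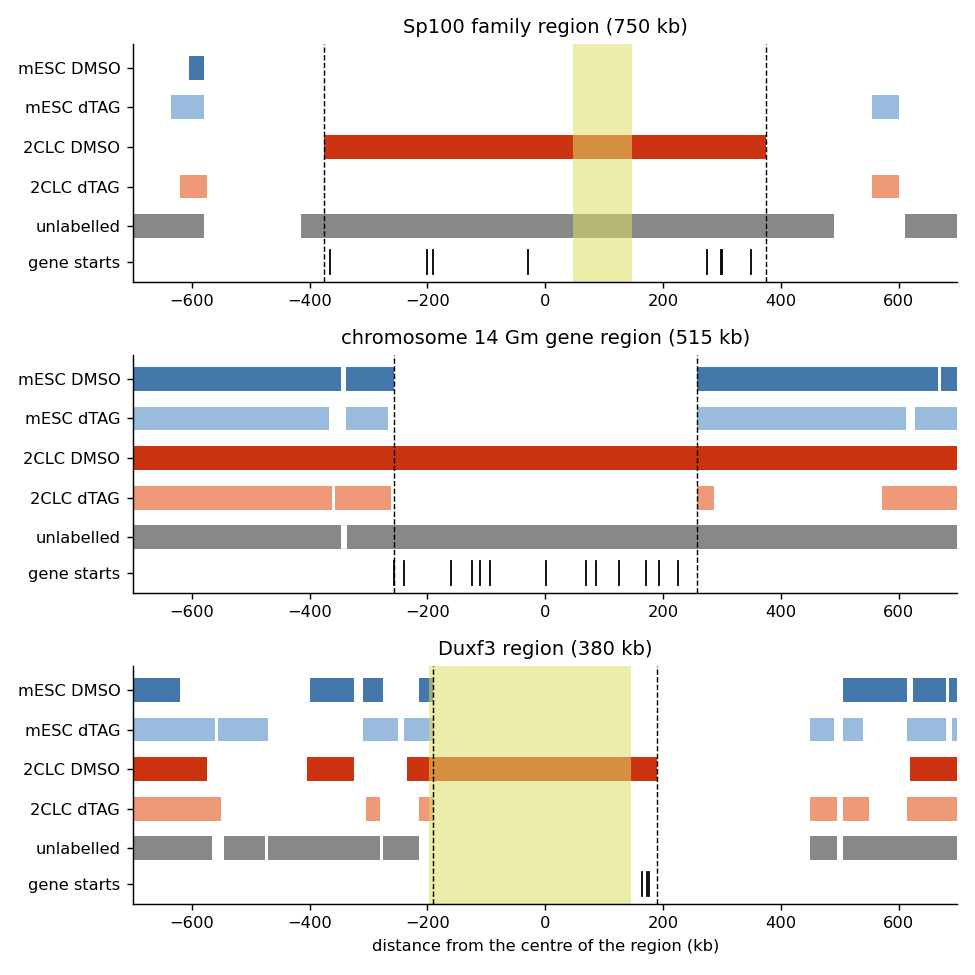
Domains of the 5 sets around the 3 widest regions found only in 2CLC DMSO, against distance from the centre of each region in kb. Dashed lines mark the region, yellow shading the assembly gaps and short black lines the starts of protein-coding genes inside it. The bar of 2CLC DMSO spans each region alone among the sorted sets, with the unlabelled set present in the upper 2 maps and absent over the Duxf3 region, most of which is gap.

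Promoters of the Duxf3 and Sp100 family genes are shown because these gene starts were inside a domain in 2CLC DMSO alone among the sorted sets. Each runs from 250 bases before to 50 bases after a RefSeq transcript start, on GRCm38.p6, with CG dinucleotides in capitals. Where RefSeq has several starts, the one nearest to the annotated gene start was taken.
Duxf3 promoter, chr10:58233040-58233339, minus strand: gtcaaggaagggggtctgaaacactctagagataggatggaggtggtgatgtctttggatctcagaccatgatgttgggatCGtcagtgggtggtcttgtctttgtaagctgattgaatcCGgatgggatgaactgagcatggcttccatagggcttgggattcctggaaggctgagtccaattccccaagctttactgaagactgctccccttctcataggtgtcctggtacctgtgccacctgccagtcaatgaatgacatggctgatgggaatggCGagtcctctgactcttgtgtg
Sp110 promoter, chr1:85598761-85599060, minus strand: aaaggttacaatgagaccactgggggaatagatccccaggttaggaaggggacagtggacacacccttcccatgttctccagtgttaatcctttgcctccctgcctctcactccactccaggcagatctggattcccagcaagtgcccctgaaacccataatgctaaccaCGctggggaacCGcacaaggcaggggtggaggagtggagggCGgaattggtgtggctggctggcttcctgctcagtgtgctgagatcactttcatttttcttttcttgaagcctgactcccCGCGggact
Sp140 promoter, chr1:85600453-85600752, plus strand: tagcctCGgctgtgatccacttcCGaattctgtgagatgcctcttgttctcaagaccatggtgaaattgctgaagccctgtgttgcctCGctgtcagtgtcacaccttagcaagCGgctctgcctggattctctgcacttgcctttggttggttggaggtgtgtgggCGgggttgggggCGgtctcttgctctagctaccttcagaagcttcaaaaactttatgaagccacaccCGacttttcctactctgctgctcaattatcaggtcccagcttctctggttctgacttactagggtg
Sp100 promoter, chr1:85649738-85650037, plus strand: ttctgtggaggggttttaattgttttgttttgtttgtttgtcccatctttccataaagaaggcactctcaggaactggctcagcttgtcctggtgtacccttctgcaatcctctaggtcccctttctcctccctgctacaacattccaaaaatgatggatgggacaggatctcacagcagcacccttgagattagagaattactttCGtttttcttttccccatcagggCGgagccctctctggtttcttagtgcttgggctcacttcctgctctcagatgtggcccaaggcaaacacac
These windows hold 3, 5, 7 and 2 CG dinucleotides, respectively. The median was 7 over the 32851 promoter windows of the RefSeq table and 4 over the 280 that are centred in a region found only in 2CLC DMSO. The core of the interferon-stimulated response element, written as GAAA, any 2 bases and GAAA again, or the same on the other strand as TTTC, any 2 bases and TTTC, was in none of the 4. It was in 7 of the 280 windows (2.50%) and in 1131 of all windows (3.44%). These letters are a description of the windows and not of binding.

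The regions met other domains in 3 ways. In 137 of 496 (27.6%, Wilson interval 23.9% to 31.7%), the region was a whole 2CLC DMSO domain with no other sorted set in it. For the background, 169 of all 3870 2CLC DMSO domains (4.37%) shared under 1 kb with any other sorted set, a figure that the rule itself uses. It is a share of domains and not of regions, so it does not compare directly with the 27.6%. A further 287 (57.9%, 53.5% to 62.1%) were the end of a 2CLC DMSO domain that reached beyond a domain of another set on 1 side. The remaining 72 (14.5%, 11.7% to 17.9%) lay between domains of other sets on both sides, where 2CLC DMSO was continuous. Thus most regions were extensions or bridges of domains that another set also had. The 359 attached regions belonged to 2CLC DMSO domains with a median width of 165 kb.

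The neighbours of attached regions, read at the ends where the 2CLC DMSO domain ran on past the region, were spread over all 3 sets. At these ends, an mESC DMSO domain met 196 of the 359 (54.6%, 49.4% to 59.7%), a 2CLC dTAG domain 182 (50.7%, 45.5% to 55.8%) and an mESC dTAG domain 118 (32.9%, 28.2% to 37.9%), with some regions counted under several sets. For 119 regions mESC DMSO was the sole set at these ends, for 88 it was 2CLC dTAG and for 40 it was mESC dTAG. These counts leave out domains that began where the 2CLC DMSO domain itself stopped, as a further set did at 6 of the attached regions and at 2 of the whole domains. On chromosomes 1 to 19, mESC DMSO had 3870 domains covering 52.4%, 2CLC dTAG 8281 covering 46.7% and mESC dTAG 6770 covering 44.6%. The same shares over the ends of all 2CLC DMSO domains were not taken. The order of the sets is therefore not read as a trait of the regions. Whole domains were often close to others as well. Their median distance to the nearest domain of another sorted set was 30 kb, 48 of the 137 lay under 10 kb from one, and 27 were over 100 kb from every other set.

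Most regions were narrow. The median width was 45 kb (40 to 50 kb), and 48 regions (9.68%) reached 100 kb. Whole domains had a median of 50 kb (45 to 55 kb), extensions on 1 side 40 kb (40 to 45 kb) and bridges 45 kb (40 to 60 kb), so the 3 kinds overlapped in width. At the threshold, 80 regions measured 25 kb, 3 runs missed it by the rounding of the 5 kb grid, and 108 runs of 20 kb were left out.

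**Figure D2:**
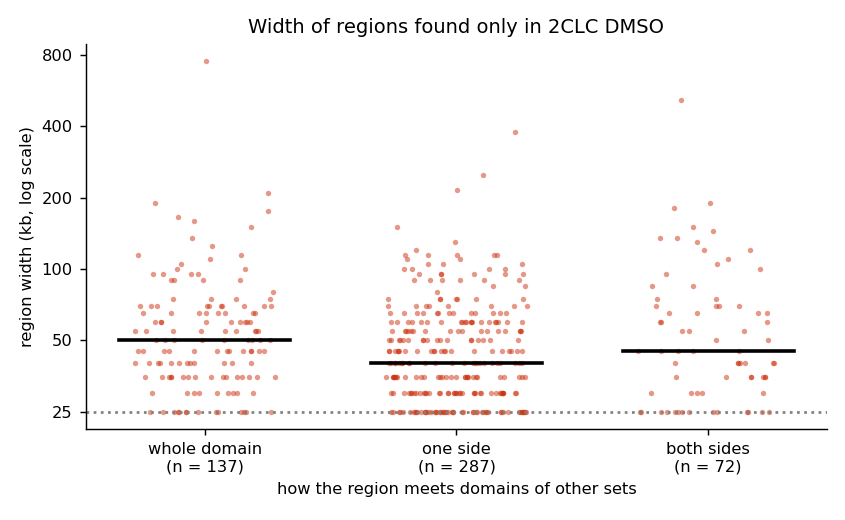
Width in kb (log scale) of the 496 regions by how they meet domains of other sorted sets. Each point is a region, black bars are medians of 50, 40 and 45 kb, and the dotted line is the minimum of 25 kb. The highest points of the 3 columns are the Sp100 family region, the Duxf3 region and the chromosome 14 region.

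The next 7 regions by width measured 175 to 250 kb, and none of them had an assembly gap or more than 6.27% repeated 50-base words. On chromosome 15 (chr15:6318729-6568727, 250 kb), the region held all of C9, a component of the complement membrane attack complex, and the start of Fyb, an adaptor protein of T cells and platelets. Dab2, named after its values were seen, starts outside it but had the most sequence in it, 122 kb or 86.6% of the gene. This region abutted an mESC dTAG domain, while the nearest 2CLC dTAG domain was 25 kb and the nearest mESC DMSO domain 110 kb away. On chromosome 19 (chr19:22081828-22296827, 215 kb), it held the start of Trpm3, which encodes a cation channel, and 158 kb of that gene. On chromosome 6 (chr6:16811386-16991384, 180 kb), all of Tfec, a transcription factor related to MITF, lay in a bridge between an mESC DMSO and an mESC dTAG domain, inside a 2CLC DMSO domain of 1290 kb.

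No protein-coding gene starts in the other 4. Those on chromosome 19 (chr19:14601838-14811837, 210 kb) and chromosome 8 (chr8:89077891-89267890, 190 kb) were whole domains without a base of a protein-coding gene. The one on chromosome 8 was 310 kb from mESC DMSO, 625 kb from mESC dTAG and 90 kb from 2CLC dTAG. On chromosome 10 (chr10:111714853-111904851, 190 kb), the region filled the space between 2CLC dTAG domains. The whole domain on chromosome 13 (chr13:89562828-89737826, 175 kb) started inside Hapln1 and ended inside Vcan, which encode a link protein and a proteoglycan of the extracellular matrix. Those genes, named after their values were seen, had 67.9% and 94.6% of their length in it.

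Away from the widest, the regions were mainly parts of long genes or lay between genes. Protein-coding genes covered 47.5% of their bases, against 24.6% of all 2CLC DMSO domain bases and 40.3% of chromosomes 1 to 19. Exons of these genes took up 2.64%, against 1.46% and 3.76%. High gene cover was not particular to 2CLC DMSO. Regions found by the same rule in mESC DMSO alone had 45.6% of their bases in protein-coding genes and 1.64% in exons. The values were 43.0% and 4.27% for 2CLC dTAG alone and 53.0% and 5.28% for mESC dTAG alone. Of the 496 regions, 175 (35.3%, 31.2% to 39.6%) lay wholly within genes, and 44 of those held no exon base. Another 175 held no base of a protein-coding gene. The 368 genes that shared bases with a region had a median length of 104 kb, compared with 17.6 kb over all protein-coding genes. A long gene is met more often than a short one by any set of regions, so this is a description of where they lie.

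In 28 genes, 100 kb or more was in these regions. The following were named after their values were seen. Bcl2, which protects cells from apoptosis, had 164 of its 176 kb in a single region. Genes crossed by 3 separate regions were Zbtb20 (165 kb of 767 kb), 5730522E02Rik (160 kb of 608 kb), Klf12 (140 kb of 414 kb), Neb (136 kb of 242 kb) and Mbd5 (128 kb of 376 kb). Zbtb20 and Klf12 encode zinc finger transcription factors and Neb the giant muscle protein nebulin. The values show these genes broken into stretches in and out of the regions, and each stretch depends on where the other 3 sets had a domain.

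Protein-coding gene starts were sparser in the regions than over chromosomes 1 to 19, at 4.96 against 8.45 per Mb. All 2CLC DMSO domains together had fewer still, 3.75 per Mb. Without the 3 widest, the regions had 4.37 per Mb (exact Poisson interval 3.61 to 5.24), an interval that includes 3.75. On chromosomes 1 to 19, 140 of 20807 protein-coding genes (0.673%) started in a region, and the regions are 1.15% of the sequence. No gene started in 399 of the 496, exactly 1 in 75, 2 in 16 and 3 or more in 6. All annotated gene types together had 489 of 51229 starts there (0.955%), among them 107 processed pseudogenes and 75 lincRNAs.

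The gene lists were read against that 0.673%. Of all 20807 protein-coding genes, 4593 started in some 2CLC DMSO domain and 140 in a region found only there. Receptor families with most of their starts in 2CLC DMSO domains had small counts in the regions. Of 1128 olfactory receptor genes, 1009 started in some 2CLC DMSO domain. In a region found only there, 3 did (0.266%), namely Olfr270, Olfr160 and Olfr985. Of 329 vomeronasal receptor genes the numbers were 327 and 1 (Vmn2r117, 0.304%). Genes of the 2-cell stage had 39 of 48 starts in a 2CLC DMSO domain, and Duxf3 was the only start in a region (2.08%). Thus the domains over the other genes of this list, where present, were shared with at least 1 other sorted set or fell short of the width limit. With counts of 3 or fewer, the shares in this paragraph are not read as different from the background.

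Genes of excitable and developing tissues gave small counts. Of 176 ion channel genes, 5 started in a region (Trpm3, Trpm6, Kcna3, Kcna10 and Kcns3). Of 99 neurotransmitter receptor genes, 2 did, Chrnb3 and Chrna6, which encode nicotinic receptor subunits and share a region of 75 kb on chromosome 8. Of 221 neuronal adhesion and guidance genes, 2 did, Efna5, an ephrin ligand, and Cdh2, the N-cadherin gene. Of 256 developmental factors, 4 did, namely Bmpr1b, a BMP receptor, Sox11 and Pou1f1, both transcription factors, and Fgf12. Of 388 zinc finger genes, 2 did (Zfp618 and Zfp712). The members named in this and the preceding paragraph other than Duxf3, Trpm3, Efna5 and Cdh2 fell outside the naming rule and were named after the counts were seen. With counts of 5 or fewer, the shares of 0.515% to 2.84% in this group are not read as different from the background.

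All 3 genes of the Sp100 family started in a single region, a list that was chosen with this known. There was no start in a region for the other 13 of the 22 lists. These were the H3K9 methylation machinery (23 genes), pluripotency and early exit (25), retinoic acid (18), germline and meiosis (65), imprinted genes (27), histone genes (75), lectin and killer cell receptors (56), serpins (60), cytochrome P450 (102), defensins (64), keratins (113), placental family genes (57) and ribosomal proteins (96). At a background of 0.673%, a list of this size has few or no starts to give.

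The unlabelled set gives a readout that the rule did not use. It held 82.8% of the bases of the regions, compared with 92.9% of all 2CLC DMSO domain bases, 63.3% of chromosomes 1 to 19 and 24.0% of the bases outside all sorted sets. Regions were mostly covered either almost fully or not at all. The unlabelled set covered 90% or more of 346 regions (69.8%, 65.6% to 73.6%), none of 74 (14.9%, 12.1% to 18.3%) and a part of 76. By kind, at least 90% was covered in 91 of 137 whole domains (66.4%, 58.2% to 73.8%), 199 of 287 extensions (69.3%, 63.8% to 74.4%) and 56 of 72 bridges (77.8%, 66.9% to 85.8%), and these intervals overlap.

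Coverage also differed by neighbour. Extensions and bridges with mESC DMSO as the sole set at the ends where the 2CLC DMSO domain ran on had 91.9% of their bases in the unlabelled set, those with 2CLC dTAG alone 79.3% and those with mESC dTAG alone 75.5%. The 74 uncovered regions were narrower, with a median of 35 kb (30 to 40 kb) against 50 kb (45 to 55 kb) for the 346 covered ones. They also held more soft-masked sequence, with medians of 29.6% (26.8% to 34.6%) and 24.7% (23.6% to 25.6%), and 7.19 gene starts per Mb (exact Poisson interval 4.56 to 10.8) against 4.37 (3.52 to 5.35), intervals that overlap. The Duxf3 region is among the uncovered and the Sp100 family and chromosome 14 regions are among the covered ones. What cells and treatment the unlabelled set comes from is not given, so its coverage is not a replicate of any sorted group.

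**Figure D3:**
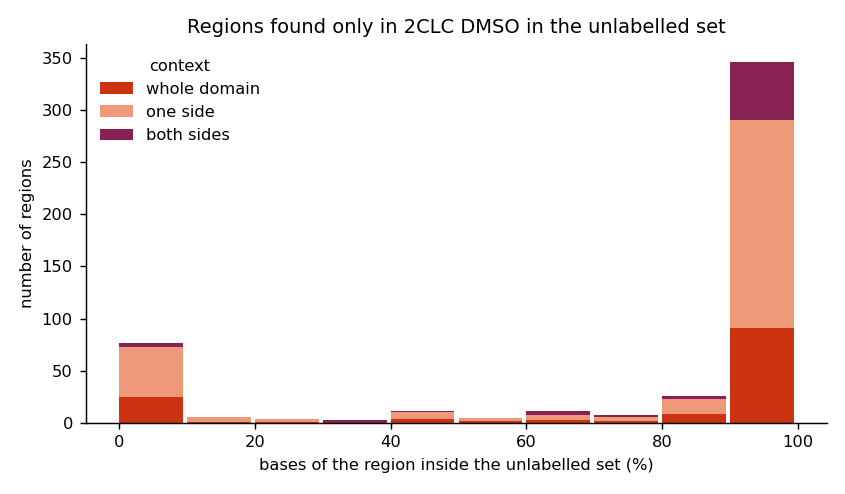
Number of the 496 regions by the share of their bases inside the unlabelled set, in steps of 10%, coloured by how the region meets domains of other sorted sets. The highest bar holds the 346 regions covered by 90% or more, and the next highest, at the left, is mostly the 74 regions that share no base with it.

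Sequence composition set the regions between domain and domain-free sequence. Their median GC content was 41.4% (41.1% to 41.7%), with an 80% range over regions from 38.0% to 44.5%. Over all their bases it was 41.3%, against 39.2% in all 2CLC DMSO domains and 45.3% outside all sorted sets. Their median soft-masked share was 25.8% (24.8% to 26.6%). Over all their bases it was 27.7%, against 39.7% in all 2CLC DMSO domains and 25.7% outside all sorted sets. CG dinucleotides occurred at 7.69 per kb, against 6.08 in all 2CLC DMSO domains and 11.6 outside all sorted sets. Without the 3 widest regions, repeated 50-base words made up 3.26%, and the median over the 496 regions was 2.00%.

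Regions of at least 25 kb found by the same rule in 1 other set alone were the closest comparison. There were 1023 for mESC DMSO, 806 for 2CLC dTAG and 312 for mESC dTAG. GC content was lower in the 2CLC DMSO regions than in the mESC DMSO regions (median 42.6%, 42.5% to 42.8%), the 2CLC dTAG regions (43.6%, 43.4% to 43.8%) and the mESC dTAG regions (42.9%, 42.3% to 43.2%), with intervals that do not overlap. Soft-masked sequence was slightly above that of the mESC DMSO regions (23.5%, 23.0% to 23.9%) and lower than in the 2CLC dTAG regions (31.4%, 30.9% to 32.1%) and mESC dTAG regions (31.6%, 30.1% to 32.9%).

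Gene starts were denser in the regions of the dTAG sets than in those of the DMSO sets. The 2CLC DMSO regions had 4.96 protein-coding gene starts per Mb (exact Poisson interval 4.18 to 5.86), or 4.37 (3.61 to 5.24) without the 3 widest, and the mESC DMSO regions had 2.74 (2.38 to 3.14). The 2CLC dTAG regions had 12.5 (11.3 to 13.8) and the mESC dTAG regions 12.4 (10.4 to 14.5), above the 8.45 of chromosomes 1 to 19. The unlabelled set held 82.8% of the bases in 2CLC DMSO regions, 96.6% in mESC DMSO regions, 43.6% in 2CLC dTAG regions and 49.1% in mESC dTAG regions. Each set of regions comes from a single list, and these differences were not tested between cultures.

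**Figure D4:**
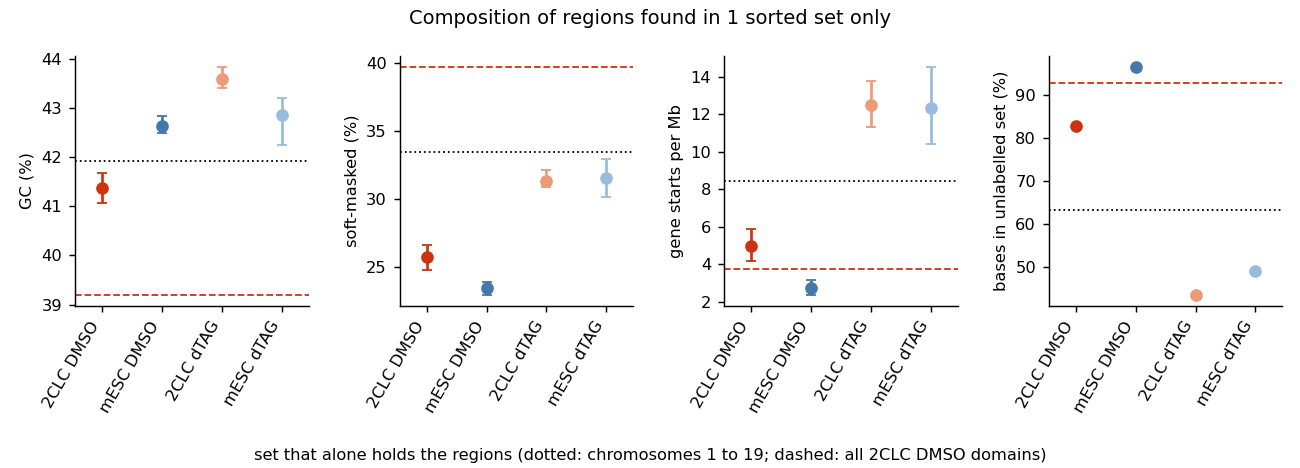
GC content and soft-masked share (medians over regions with 95% order-statistic intervals), protein-coding gene starts per Mb (exact Poisson 95% intervals) and share of bases in the unlabelled set (no interval) for regions found in 1 sorted set alone. Dotted lines give chromosomes 1 to 19 and dashed lines all 2CLC DMSO domains, both over all bases, and no axis starts at 0. The DMSO sets have fewer gene starts and more bases in the unlabelled set than the dTAG sets.

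The regions were unevenly spread over chromosomes. Over chromosomes 1 to 19 there were 20.1 per 100 Mb. Chromosomes 19, 2, 15 and 16 had the most, with 39.1 (exact Poisson interval 25.03 to 58.1), 34.6 (26.6 to 44.3), 33.6 (23.4 to 46.8) and 30.5 (20.6 to 43.6) per 100 Mb. Chromosome 5 had the fewest, with 10 regions or 6.59 (3.16 to 12.1), followed by chromosome 17 with 10.5 (5.05 to 19.4) and chromosome 8 with 12.4 (7.07 to 20.1). Regions can lie only in 2CLC DMSO domains, whose cover differs by chromosome. Per 100 Mb of these domains, chromosome 19 had 109, chromosome 2 72.4 and chromosome 15 61.3. Chromosomes 9 and 16 followed with 54.7 and 54.1. Chromosomes 5, 17 and 8 again had the fewest, with 14.7, 23.9 and 25.5. The mESC DMSO regions were more numerous on 17 of the 19 chromosomes. On chromosome 15 both sets had 35 regions, and on chromosome 16 there were 30 for 2CLC DMSO and 25 for mESC DMSO. The covered length in 2CLC DMSO relative to mESC DMSO went from 0.861 on chromosome 9 to 1.00 on chromosome 16, and was 0.996 on chromosome 2 and 0.915 on chromosome 5. Neighbouring regions lay a median of 2065 kb apart, and 56 of the 477 neighbouring pairs were under 100 kb apart.

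**Figure D5:**
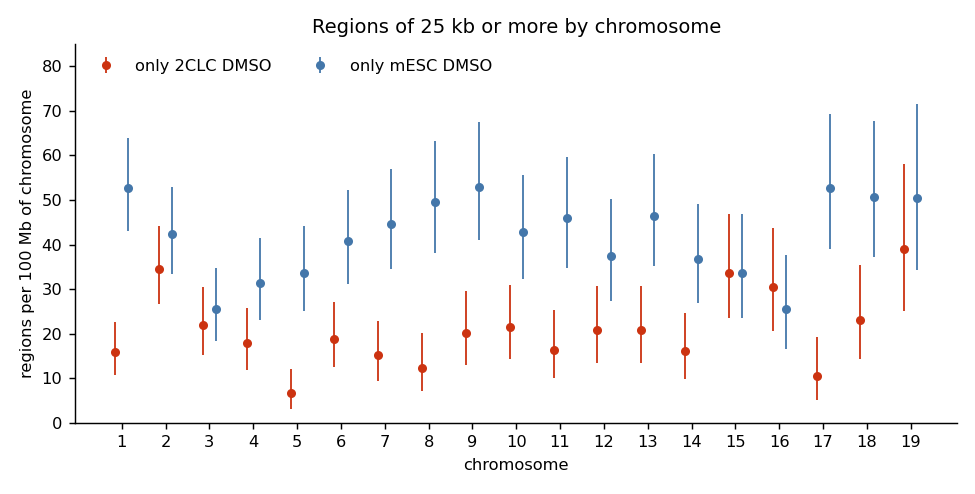
Regions of at least 25 kb per 100 Mb of chromosome for 2CLC DMSO alone and mESC DMSO alone, with exact Poisson 95% intervals from the counts. The 2CLC DMSO points run from 6.59 on chromosome 5 to 39.1 on chromosome 19, and the sets are level on chromosome 15.

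Assembly gaps touched few of the regions. Of the 496, 3 had over 50% of their bases in gaps. Beside the Duxf3 region, these were whole domains on chromosome 9 (chr9:13306607-13441606, 66.8% unknown bases), which lies in Maml2, and on chromosome 14 (chr14:24661115-24716114, 94.4%), both named after their values were seen. At least 25% of 50-base words were repeated in 9 regions, and at least 50% in 2, those of the Sp100 family and of chromosome 14.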

How the data were processed

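H3K9me2 ULI-NChIP was analysed from domain positions deposited by the authors (chromosome, start and end; the score is 0 in every line), with no signal, count or replicate value, so the depth and precision per sample are unknown. Per the methods, reads were aligned with STAR in a mode that places reads with several matches, and duplicates and ENCODE high-signal regions were removed. Normalized signal was averaged over 10 kb windows on a 5 kb grid, ignoring locations without signal. The log2 ratio of ChIP to input was then taken for each bin. Bins above a high percentile were extended until a bin under a low one. The submitters' processing notes name mm10, STAR 2.7.10, Picard 2.26.0, SAMtools 1.14, bedtools 2.30.0, deepTools 3.5.1 and R 4.1.2. Pooling of replicates, and whether percentiles were set per group, is not given in the sources used here. The study used 1 clone for the sorted cells.

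Lists naming a state and treatment were assigned to the sorted groups, and the unlabelled set to none. Intervals were handled in Python 3.11.15 with numpy 2.4.6 and scipy 1.17.1, with ends within 1 kb taken as touching. GC, soft-masking (over known bases) and 50-base words with another copy on that strand of the chromosome came from GRCm38.p6, and genes from GENCODE M21. Interval and word counting was tested on simulated data. Shares carry Wilson, medians order-statistic and gene starts exact Poisson 95% intervals. Named were the 10 widest regions, the 3 widest of each kind (all among those 10), their protein-coding genes and then list genes, up to 30 genes. The regions, lists and rule were chosen with earlier results of these data known. Alternatives changed the minimum width, merging, widening of other domains, domain size, chromosomes, and left out repeated or the widest regions.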

Additional observations from a re-analysis of the deposited data

How the results depend on the processing

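With a minimum run of 50 kb, the number of regions was 224, their median width 65 kb, the whole domains 72 and the share of bases in the unlabelled set 87.9%. With 15 kb, the median width was 30 kb. The changes in number and width follow from the limit itself, and the cause of the change in share was not tested. Restricting every list to domains of 50 kb or wider, the median width was 55 kb and the median soft-masked share 27.7%. With chromosome X added, the share in the unlabelled set was 76.8%. Counting all annotated genes gave 17.3 starts per Mb. The other 66 values, over 8 results, stayed within 1.5 times the reported number, length or count, within the interval of the reported median or density or, for the share in the unlabelled set, between 81.1% and 83.7%. A minimum of 24 kb, added after seeing the data, gave 499 regions. No paired analysis was possible because the lists hold no value per replicate, and for the same reason no replicate could be left out. The lists hold no signal, so a region just short of the calling limits in another set cannot be told from one without the mark.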
